A study of Mus musculus with 6 samples.

Results

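Open chromatin was described at 10 genes of inflammatory signalling, out of 21924 protein-coding genes in the GENCODE annotation of the mouse genome mm10. They are 6 secreted cytokines and chemokines (Il6, Ccl2, Ccl7, Cxcl1, Cxcl5 and Cxcl12), 2 acute-phase proteins (Saa3 and Lcn2) and 2 parts of the NF-kB pathway (Nfkb1 and Nfkbia). They were taken by name, and their open chromatin was every ATAC-seq peak with its summit inside the gene or up to 50 kb to either side, with peaks up to 1 kb from a start site counted as promoter peaks. ATAC-seq marks accessible DNA by the cuts of a transposase, so it reads chromatin and not the RNA or protein of these genes.

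The study profiled adipocytes made in culture from the stromal vascular fraction, the unsorted mix of cells left after the fat cells are removed, of male wild type C57BL/6J mice aged 3 to 4 weeks. Beige and white adipocytes both came from inguinal subcutaneous fat, and brown adipocytes came from brown adipose tissue. All cultures were induced for 48 h with insulin at 5 μg/ml and isobutyl methylxanthine at 0.5 mM and were collected at day 7. The beige and the brown medium also held dexamethasone at 5 μM, T3 at 1 nM and rosiglitazone at 1 μM, and the white medium held dexamethasone at 1 μM with neither T3 nor rosiglitazone. After the induction, insulin was kept in all cultures, with T3 and rosiglitazone kept in the beige and brown ones. The insulin amount is that of the sample labels, and the methods of the study give other amounts. Beige and white therefore differed in medium within one depot, beige and brown differed in depot within one medium, and brown and white differed in both, so for brown against white the depot and the medium cannot be told apart. Each condition had 2 libraries, and the labels do not say whether these came from separate animals. The paper of the study does not describe the brown libraries, and the labels name no batch. Any batch particular to brown could therefore not be told apart from its depot.

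NF-kB is a family of transcription factors that inhibitors hold in the cytoplasm until receptors for cytokines or microbial products set a kinase cascade in motion. The freed dimers, of which p50 made from the Nfkb1 product is a common part, bind short DNA sites and switch on cytokines, chemokines and acute-phase genes, among them Nfkbia itself, whose product IkBa shuts the factor off again. Fat cells and their progenitors make several of these proteins, and in adipose tissue the chemokines draw in monocytes and neutrophils.

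The deposited lists held 109143 to 127490 peaks per library. They hold no read counts. The study reports fewer mapped reads, and a lower share of reads mapped, for both beige libraries than for both white ones. It reports no depth for brown. Depth was not set against any value, and a missing peak says only that none passed the threshold of the authors' peak caller. Fold enrichment is set against the background of the same library, so each peak was ranked within its own list, and its percentile (100 for the highest fold) is the value given below. An exact permutation test of 2 libraries against 2 has no two-sided p below 0.333. No test between conditions was therefore made, and the text says whether both libraries of a condition ranked above both of another. In cultures of mixed cells, fewer cells with open chromatin and less opening per cell cannot be told apart.

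The sequences just before the start sites of Il6, Cxcl1 and Nfkbia are shown because each held a match to the 10-base consensus of the NF-kB site, in capitals. They run 5′ to 3′ on the gene's own strand, at chr5:30012864-30013113, chr5:90890995-90891240 and chr12:55492648-55492897. They were taken from the promoters of the RefSeq annotation of GRCm38.p6 and end at the base before the first annotated start site. For Cxcl1 that is the start site of GENCODE (90891241), which lies before that of RefSeq.
Il6: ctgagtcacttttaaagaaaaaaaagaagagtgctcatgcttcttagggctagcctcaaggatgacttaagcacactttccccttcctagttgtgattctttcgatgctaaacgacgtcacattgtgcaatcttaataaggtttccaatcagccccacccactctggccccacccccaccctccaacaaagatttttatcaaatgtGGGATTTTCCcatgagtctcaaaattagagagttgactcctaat
Cxcl1: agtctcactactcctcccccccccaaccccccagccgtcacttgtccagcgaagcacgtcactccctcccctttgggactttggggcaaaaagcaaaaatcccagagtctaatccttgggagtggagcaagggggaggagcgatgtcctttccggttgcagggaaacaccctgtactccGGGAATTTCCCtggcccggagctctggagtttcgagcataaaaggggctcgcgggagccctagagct
Nfkbia: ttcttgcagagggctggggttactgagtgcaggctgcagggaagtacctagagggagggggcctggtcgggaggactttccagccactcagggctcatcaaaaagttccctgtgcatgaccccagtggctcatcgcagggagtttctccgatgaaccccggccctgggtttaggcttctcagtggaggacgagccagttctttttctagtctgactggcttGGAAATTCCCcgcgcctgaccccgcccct

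Counted back from the start site, the match lay at -44 to -35 in Il6 and at -29 to -20 in Nfkbia. In Cxcl1 a match on each strand overlapped, from -67 to -57. The RefSeq table held a promoter for 6 members, and those of Lcn2, Cxcl12 and Saa3 held no match. Before Lcn2, a match at chr2:32387990-32387999 lay directly beyond the far end of the sequence searched (32387989). Over the 32851 promoters of the table, 3.90% held one. The same promoters were searched for other factors on both strands. The C/EBP letters TTGCNNAA were found before Il6, Lcn2 and Saa3 (9.56% of all promoters), the AP-1 letters TGANTCA before Il6 (6.75%) and the ETS letters CCGGAAG or CAGGAAG before Lcn2 (17.0%). STAT (TTCNNNGAA, 7.02% of all promoters), the glucocorticoid response element (0.387%) and the PPAR DR1 element (0.0335%) had no match in these 6. Apart from the pair in Cxcl1, none of these matches overlapped another. A match is a run of letters and not evidence that a factor binds there.

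The promoters of these inflammatory genes were open in white, beige and brown cultures alike. A promoter peak was present in all 6 libraries for 9 of the 10 members, the exception being Saa3, where 62% of all protein-coding genes had one in all 6. No member was open at its promoter in both libraries of a condition and without a peak in both of another, a difference found at 1.87% of all genes. The ranks of the 9 promoters were mostly modest. Their median percentile was 64.8, against a median of 88.9 and quartiles of 75.3 and 95.5 over the 13587 genes open in all libraries. Il6 and Cxcl1 stood highest among the members, Ccl7, Nfkbia and Cxcl12 followed, and Nfkb1, Lcn2, Ccl2 and Cxcl5 were lowest by their medians. The ranges of neighbours in that order overlapped in every case.

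**Figure D1:**
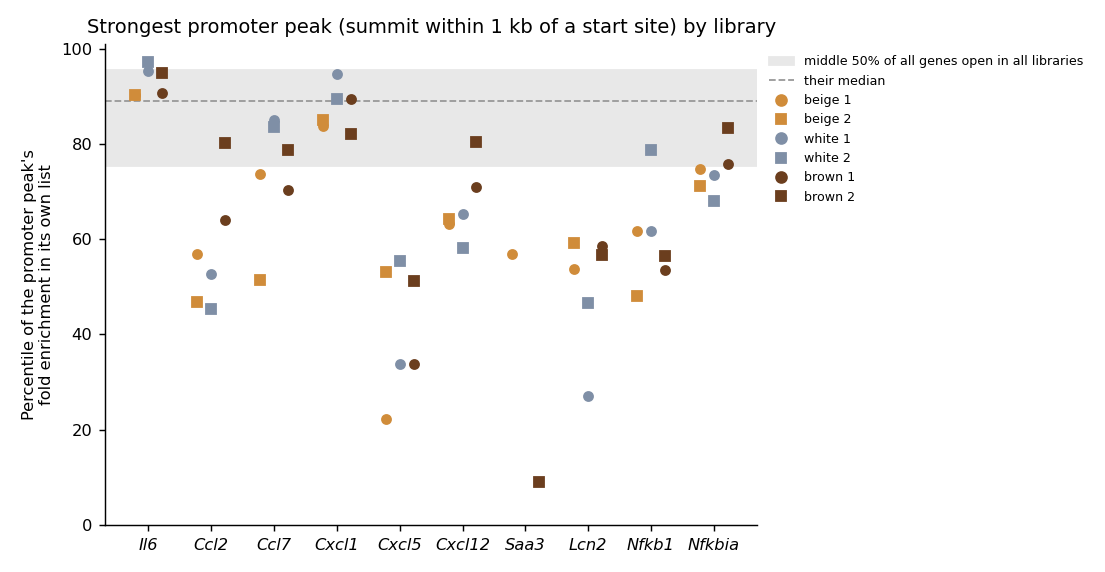
Percentile of the fold enrichment of the strongest promoter peak (vertical axis, 0 to 100) of each member (horizontal axis) in each library, circles for library 1 and squares for library 2 of a condition, with no error bars because every value is drawn. The grey band and dashed line are the quartiles and median over all genes open in all 6 libraries; Il6 lies at 90.3 or higher in every library, Cxcl5 never exceeds 55.5, and Saa3 has a value in 2 libraries only.

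Il6, the cytokine interleukin 6 (chr5:30013114-30019981), had the most prominent promoter of the group. Its peak ranked at the 90.3 percentile in beige 1, 90.3 in beige 2, 95.3 in white 1, 97.3 in white 2, 90.8 in brown 1 and 94.9 in brown 2. Both white libraries were above all the others, and both brown libraries were above both beige ones. White averaged 96.3 ± 1.41 (SD, n = 2) and beige 90.3 ± 0.00348 (SD, n = 2), a difference of -5.93 points for beige minus white. The order of white over beige held under each of the 8 other settings tried. White and brown overlapped with equally long lists, and brown and beige overlapped with every summit counted and by the percentile of -log10 q. Even so, 63.1% of all genes open in all libraries had a lower median, so the Il6 promoter stood high within this group and in the middle of promoters at large. The summit lay at 30013285 to 30013296 in the 6 libraries, -36 to -25 bp from the nearest of its 4 annotated start sites, which is downstream of the outermost start site that ends the sequence above. The peak interval, joined over the libraries at chr5:30012541-30013731, covered the whole of that sequence, so the NF-kB match lay inside the peak and upstream of its summit.

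With its promoter, the Il6 locus held 4 to 7 peaks per library, or a median of 5.15 per 100 kb where the median over all genes was 7.34 and 34.2% of genes had fewer. Besides the promoter, only a region at -15593 bp (counted here and below from the nearest annotated start site of the gene, with minus before it) was open in all libraries. That region ranked at 56.0 and 52.9 in beige, 42.4 and 46.3 in white and 68.8 and 61.8 in brown, so white was the lowest and brown the highest with no overlap, an order unlike that of the promoter. A region at -10671 bp had a peak in both beige libraries (23.8 and 42.6) and in white 1 (62.6) and none in brown.

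Ccl2 and Ccl7 encode monocyte chemoattractants that act through CCR2, and they are neighbours on chromosome 11, at chr11:82035571-82037453 and chr11:82045712-82047525. Their 50 kb surroundings held the same 30 regions, so their loci are one stretch of DNA and not separate observations. The promoters differed. The Ccl2 peak ranked at 56.9 and 46.7 in beige, 52.7 and 45.3 in white and 64.0 and 80.3 in brown. Both brown values lay above the other 4, with 72.1 ± 11.5 in brown against 51.8 ± 7.19 in beige and 49.0 ± 5.19 in white (SD, n = 2 each). The order of brown over beige held in each of the 8 other settings, and that of brown over white turned round when promoters were taken up to 3 kb from a start site. The Ccl7 peak ranked at 73.7 and 51.4 in beige, 85.0 and 83.5 in white and 70.2 and 78.7 in brown. Here both white libraries were highest (84.2 ± 1.05, SD, n = 2), and the beige libraries lay far apart (62.6 ± 15.7, SD, n = 2). White over brown held under each other setting, and white over beige under all but the 3 kb promoter.

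The shared locus of Ccl2 and Ccl7 was dense with open chromatin, with 17 to 23 peaks per library and a median of 20.6 per 100 kb, more than 98.2% of all genes. Its strongest region lay in an intergenic stretch at -28528 bp from Ccl2 (chr11:82006759-82007449), with percentiles of 92.5 and 88.8 in beige, 94.8 and 94.0 in white and 93.6 and 93.5 in brown. It was higher in every library than the promoter of either chemokine. Weaker regions separated the conditions more. A region at -39199 bp ranked at 76.2 and 82.7 in beige, 7.14 and 64.9 in white and 42.3 and 71.2 in brown, with both beige libraries above all others. A region at -33395 bp had a peak in the white libraries alone (33.9 and 29.4). Past Ccl7, in an exon of the eotaxin gene Ccl11, a region at +16688 bp was present in beige (9.99 and 24.1) and white (63.9 and 35.5) and absent from brown. Another at +21485 bp was present in beige (55.0 and 32.7) and brown (60.0 and 13.7) and absent from white.

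Cxcl1 and Cxcl5 encode neutrophil chemoattractants and lie in the chemokine cluster of chromosome 5 (chr5:90891241-90893115 and chr5:90759360-90761624). The Cxcl1 promoter was the second strongest, at 83.9 and 85.0 in beige, 94.8 and 89.5 in white and 89.4 and 82.2 in brown. Both white libraries ranked above the rest, with a difference of -7.73 points for beige minus white and -6.35 for brown minus white, although white 2 exceeded brown 1 by little. By the percentile of -log10 q in place of the fold, neither of these orders held, and white over brown was also lost with equally long lists and at a q value under 0.00001. Its summits lay at 90891140 to 90891161, next to the 2 overlapping NF-kB matches shown above (90891174 to 90891184).

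A distal region -15017 bp from Cxcl1 is shown because it is the strongest intergenic region before the gene and also holds an NF-kB match. The window is chr5:90876149-90876299 of mm10, on the forward strand, centred on the summit, with the match in capitals.
Cxcl1 -15017: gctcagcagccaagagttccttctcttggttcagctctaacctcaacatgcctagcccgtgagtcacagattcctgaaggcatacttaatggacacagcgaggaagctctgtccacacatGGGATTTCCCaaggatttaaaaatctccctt
Its percentiles were 82.6 and 77.3 in beige, 92.3 and 91.6 in white and 78.2 and 86.7 in brown. As at the promoter, both white libraries were above the other 4. The strongest region of the locus, at +39990 bp, ranked from 95.4 to 98.8 and was the promoter of Mthfd2l, a mitochondrial enzyme of folate metabolism.

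The Cxcl1 locus held 20 and 25 peaks in the beige libraries, 15 and 20 in white and 17 in each brown library. Over all genes the median density was also highest in beige, at 7.74 peaks per 100 kb against 7.51 in white and 6.88 in brown. The Cxcl1 locus also held 3 of the regions found in beige alone, at -38253 bp (15.7 and 5.47), -31545 bp (4.42 and 8.84) and +28439 bp (18.7 and 48.8). All 3 were low in their lists.

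Cxcl5 had the weakest promoter of the members with a peak throughout. The strongest promoter peak ranked at 22.3 and 53.2 in beige, 33.8 and 55.5 in white and 33.9 and 51.3 in brown, so the spread within each condition was larger than any difference between them. It was not the same peak in each library. In white 2 and brown 1 it lay at -980 and -960 bp and in the others at 60 to 118 bp past the start, and the second peak of beige 1 lay at -1039 bp, just outside the promoter limit. Only 4.56% of genes had a lower median.

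Away from the Cxcl5 promoter, every region open in all libraries ranked lowest in white. The 3 regions lay at -5375 bp, at +19656 bp and, in an intron of the chemokine gene Cxcl3, at +30193 bp. The first ranked at 75.3 and 87.6 in beige, 61.9 and 46.3 in white and 84.8 and 88.0 in brown. The last ranked at 80.5 and 83.6 in beige, 66.6 and 62.4 in white and 85.6 and 92.7 in brown. The region between them is less clear, since white 2 (68.7) lay almost level with brown 2 (68.7) and white 1 was at 7.77. A weak region at -12975 bp had a peak in beige alone (46.4 and 27.0).

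Cxcl12, also called stromal cell-derived factor 1, binds CXCR4 and is made by stromal cells without inflammation. Its promoter (gene at chr6:117168535-117181367) ranked at 63.2 and 64.3 in beige, 65.3 and 58.2 in white and 70.9 and 80.4 in brown. Both brown libraries were above the other 4, by 13.9 points over white and 11.9 over beige. The order of brown over white held in all 8 other settings, and that of brown over beige did not hold with -log10 q or with promoters of 3 kb. Inside the gene the order was the opposite for beige and brown. A region at +5475 bp, in an exon, ranked at 80.7 and 79.4 in beige, 61.4 and 69.1 in white and 43.3 and 67.9 in brown.

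Saa3, a serum amyloid A protein of the acute phase that mouse fat cells also make, was the one member without a promoter peak in all libraries. No library had a peak at its start (gene at chr7:46711998-46715700, reverse strand). The only peak within 1 kb was a region inside the gene, with a summit at 990 bp past the start in beige 1 and 961 bp in brown 2. In beige 2 the same region had its summit at 1002 bp, just past the limit. Counted as one region it was present in both beige libraries (56.9 and 38.0) and in brown 2 (9.01) and absent from both white ones.

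The strongest region at the Saa3 locus did not belong to it. It lay at +5003 bp (chr7:46710182-46710871), past the gene's 3′ end and -17 bp from the start of Saal1, with percentiles from 94.0 to 98.3. Before Saa3, an intergenic region at -4033 bp was open in every library, at 76.4 and 71.5 in beige, 82.9 and 71.8 in white and 84.7 and 85.8 in brown. Both brown values were the highest. Further out, towards the related genes Saa1 and Saa2, 4 more regions were open in all libraries. One at -30896 bp ranked at 22.6 and 23.7 in beige, 46.8 and 55.8 in white and 58.8 and 45.6 in brown, so that beige was lowest.

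Lcn2, a lipocalin that binds bacterial iron carriers, ranked lowest in white at its promoter. The gene lies at chr2:32384633-32388252 on the reverse strand, and the start site used, 32387797, lies inside that interval. The promoter peak ranked at 53.6 and 59.3 in beige, 27.1 and 46.7 in white and 58.7 and 56.6 in brown. Both white libraries were lowest. The means were 56.5 ± 4.00 in beige, 36.9 ± 13.9 in white and 57.7 ± 1.43 in brown (SD, n = 2 each), and both orders held under each of the 8 other settings. Lcn2 was the 1 member of 9 whose promoter ranked higher in both beige than in both white libraries, where 28.6% of all genes open throughout did so.

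Some other regions of the Lcn2 locus shared that order. Its 15 regions open in all libraries include the promoter itself, which is counted in both numbers that follow. Of the 15, 6 ranked above white in both beige libraries (25.8% of all regions open in all libraries) and 8 in both brown libraries (22.7%). White was above beige at 1 (22.1%) and above brown at 1 (23.9%), and at the rest the conditions overlapped. A region lowest in white lay in an exon of Ptges2, which encodes a prostaglandin E synthase, at -17109 bp. It ranked at 76.5 and 82.9 in beige, 18.6 and 57.0 in white and 57.4 and 66.8 in brown. White was above beige and brown at the same region, an intronic one of Slc25a25 at -49441 bp. That region ranked at 81.2 and 83.5 in beige, 94.3 and 95.6 in white and 86.9 and 91.7 in brown. Several of these regions are promoters of other genes (Ciz1, Dnm1, Ptges2 and Slc25a25), as the locus is gene-rich, with a median of 18.3 peaks per 100 kb.

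Nfkb1, which encodes p105, the precursor of the p50 subunit, lies at chr3:135584655-135691547 on the reverse strand and has 2 annotated start sites far apart, so positions run from the nearer one. Its promoter ranked at 61.8 and 48.0 in beige, 61.8 and 78.8 in white and 53.6 and 56.5 in brown. White was above beige by a narrow margin, since white 1 and beige 1 were almost level, and the conditions overlapped under 5 of the 8 other settings. White over brown was clearer, with a mean of 70.3 against 55.1 (n = 2 each), a difference of -15.2 points for brown minus white. The strongest summit was at -411 to -401 bp in 3 libraries and nearer the start in the others, and with promoters of 250 bp not every library kept a peak.

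At the Nfkb1 locus, the longest of the group at 207 kb with its surroundings, 6 of the 13 regions open in all libraries ranked higher in both white than in both beige libraries (22.1% of all regions open in all libraries) and 2 the other way (25.8%). At +2382 bp, in an intron, the values were 34.8 and 39.7 in beige, 75.9 and 64.1 in white and 66.6 and 48.6 in brown. An intronic region near the 3′ end, at +81173 bp, had the reverse order, with 70.3 and 80.4 in beige, 18.2 and 60.9 in white and 80.8 and 72.6 in brown. The strongest region within the gene, at +26387 bp (chr3:135641105-135642074), ranked at 79.8 and 87.1 in beige, 91.1 and 95.5 in white and 91.7 and 84.7 in brown.

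Nfkbia encodes the inhibitor IkBa (gene at chr12:55489410-55492647, reverse strand). Its promoter ranked at 74.7 and 71.2 in beige, 73.4 and 67.9 in white and 75.9 and 83.3 in brown. Both brown libraries were above the other 4, by 6.65 points over beige and 8.95 over white. Brown over white held in each other setting, and brown over beige in all but the percentile of -log10 q, by which this wide peak (708 to 1178 bp) ranked from 90.2 to 94.6. The NF-kB match shown above, at 55492667 to 55492676, lay within the range of the summits, which ran from 55492559 to 55492724.

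Around Nfkbia, the intergenic regions at +18589 bp and -25578 bp ranked from 80.3 to 92.2 and from 79.5 to 93.2. The second was higher in both brown and both beige libraries than in white. A region at -6597 bp, in an exon of the gene model Gm36634, was highest in beige, at 90.5 and 89.1, with 69.1 and 80.6 in white and 69.5 and 71.7 in brown. Next to it, at -6873 bp, a weak region had a peak in beige alone (6.73 and 28.4).

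Over the 9 promoters together, counts of non-overlapping conditions were small. White was above beige at 4 (Il6, Ccl7, Cxcl1 and Nfkb1), where 19.8% of all genes open throughout had that order. White was above brown at the same 4, against 14.9% of all genes. Brown was above white at the other 4 with a clear order (Ccl2, Cxcl12, Lcn2 and Nfkbia), against 34.8%. Brown was above beige at Il6, Ccl2, Cxcl12 and Nfkbia, against 33.4%, and beige was above brown at 0 of 9, against 17.3%. The comparisons with white share the white libraries, and those with brown the brown ones.

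In all, 189 of the 194610 merged regions of the series lay at the 10 loci. Of these, 78 (41.3%) had a peak in all 6 libraries, against 30.2% of all regions, and 49 had a peak in a single library, with a median percentile of 14.0 there. A condition with peaks in both libraries and another with none occurred at 25 regions (13.2%), close to the 12.5% of all regions. Fully separated conditions were rare. There were 5 regions in beige alone (background 1.94%), 1 in white alone (1.23%) and 0 in brown alone (0.877%). There was 1 region in beige and brown but not white (1.25%), 1 in beige and white but not brown (1.16%) and 0 in white and brown but not beige (0.243%). None of the 6 regions found in one condition alone ranked above 48.8 in any library.

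**Figure D2:**
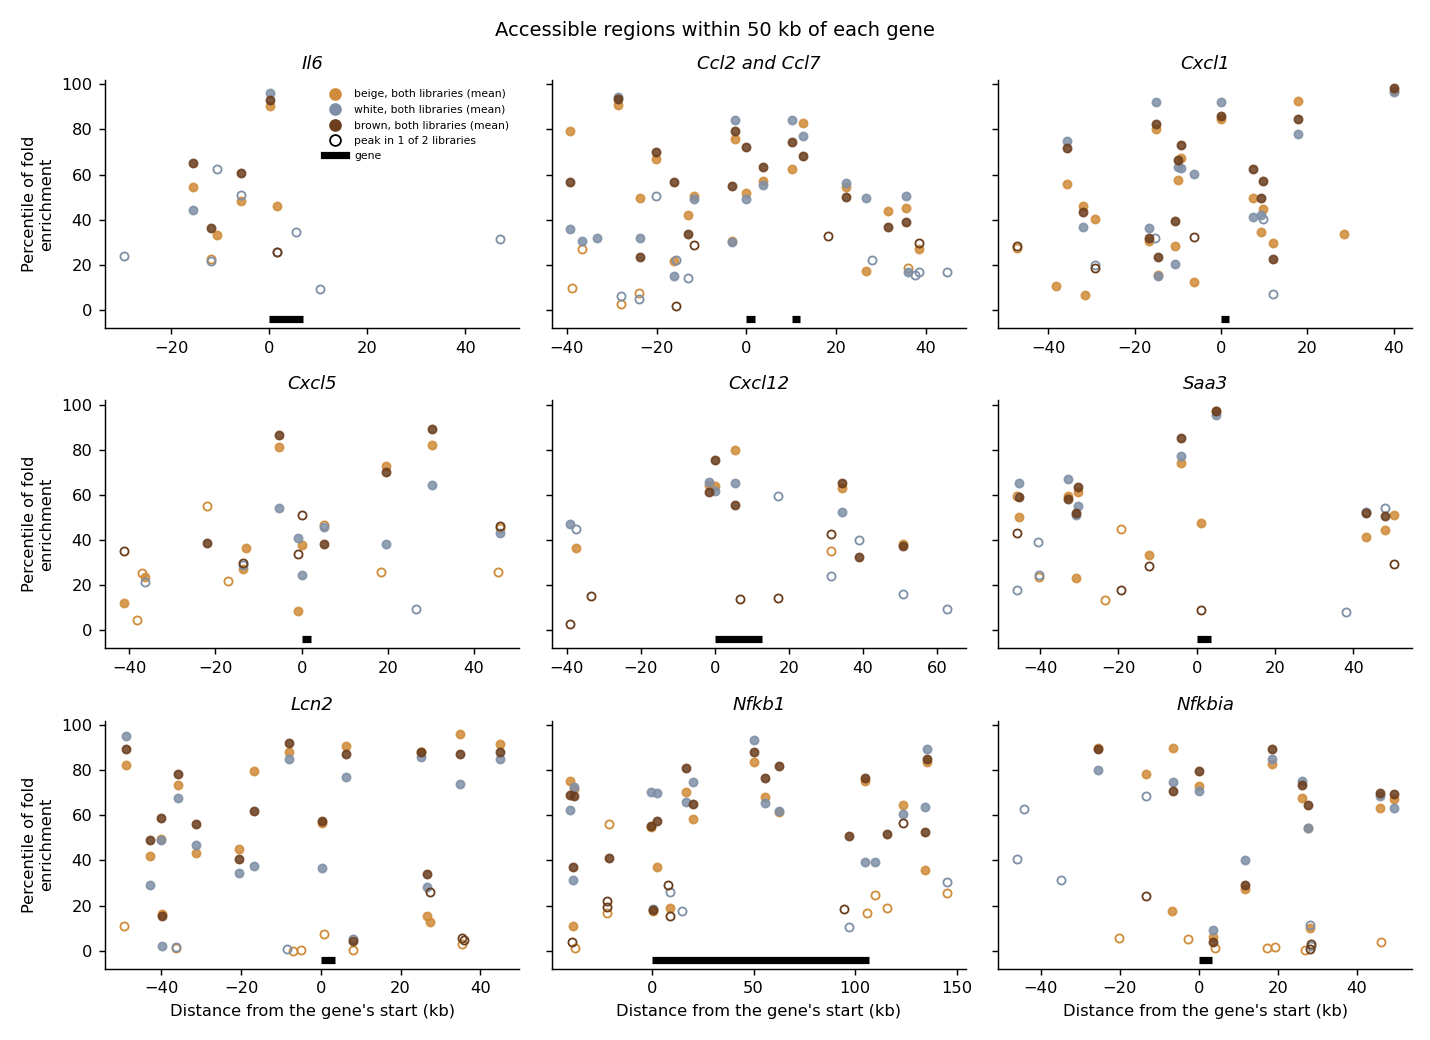
Regions at each locus by distance from the gene's outer start (horizontal axis, kb, positive in the direction of transcription) and percentile of fold enrichment (vertical axis). A filled point is the mean of both libraries of a condition and an open point a peak in 1 of 2; black bars are the genes. The Il6 locus holds few regions besides its strong promoter, and the Ccl2 and Ccl7, Cxcl1 and Lcn2 loci are dense.

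The remaining 17 of the 25 differing regions had a peak in 1 of 2 libraries of the third condition. Among all 25, beige had peaks in both libraries at 15, white at 6 and brown at 6. The same shares among all 24423 differing regions were not counted. Over all regions, too, beige alone was more frequent (1.94%) than white alone (1.23%) or brown alone (0.877%). The longest list of the series is that of beige 2, and with equally long lists 22 regions differed. These 17 regions lay at Il6 (-10671 bp, above), Ccl2 and Ccl7 (-36712 and +26001 bp, open in white and closed in brown), Cxcl12 (-38948, -37433 and +38933 bp), Cxcl5 (-41274, -36467 and -21900 bp), Lcn2 (+26899 bp), Saa3 (-12095 and +50336 bp, both open in beige and closed in white, beside the one inside the gene) and Nfkb1 (+73160, +85821, +91674 and -20913 bp). The Nfkb1 region at +73160 bp, in an intron, had peaks in both brown libraries (57.9 and 43.9) and in white 2 (10.4) and none in beige.

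At the 78 regions open in all libraries, brown ranked higher than the other conditions more often than lower. Both brown libraries were above both beige ones at 29 regions, against 24% of all such regions, and below them at 9, against 27.3%. Both were above white at 29, against 22.7%, and below white at 13, against 23.9%. Beige was above white at 19, against 25.8%, and below at 17, against 22.1%. The median difference was 3.72 points for brown minus beige and 6.24 for brown minus white, where the medians over all 58720 regions were -0.301 and -0.0755. Replicates at these regions differed by a median of 5.42 points in beige, 11.1 in white and 7.03 in brown, so most differences between conditions were of the size of the spread between libraries.

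**Figure D3:**
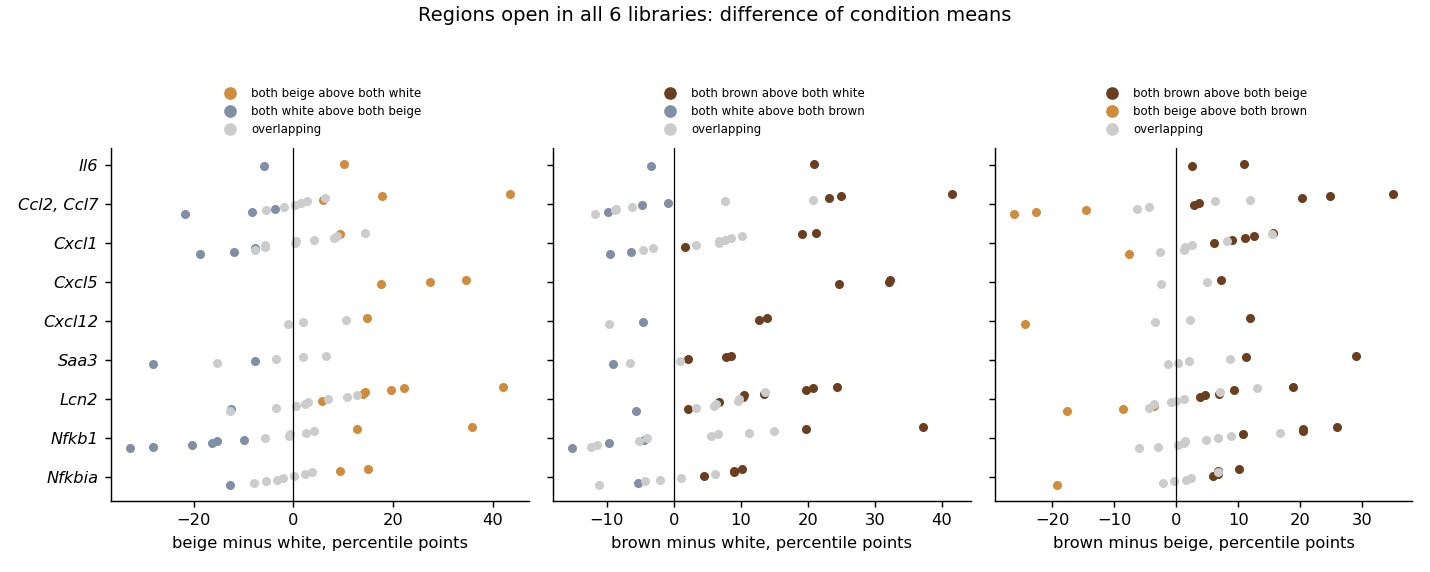
Difference between condition means in percentile points (horizontal axis) for the 78 regions open in all libraries, by locus (vertical axis), for each pair of conditions. Coloured points are regions where both libraries of one condition are above both of the other and grey points overlap; points for brown minus beige lie mostly right of 0, and all 3 points of Cxcl5 lie right of 0 in both comparisons with white.

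The regions were also divided by their distance from start sites. At the 60 regions over 1 kb from any protein-coding start site, brown was above beige at 23, against 21.4% of all distal regions, and below at 7, against 30.2%. At the 18 regions nearer to a start site, brown was above beige at 6, against 32%, and below at 2, against 18.2%. Brown was above white at 18 of the 60 distal regions, against 19.6%, and below at 9, against 26.2%. At the 18 nearer regions it was above white at 11, against 32.6%, and below at 4, against 16.9%.

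By locus, over all 78 regions, brown against beige stood at 5 above and 1 below of 13 regions at Cxcl1. It stood at 4 and 0 of 13 at Nfkb1 and 4 and 1 of 10 at Nfkbia. At Ccl2 and Ccl7 it was 5 and 3 of 12, and at Lcn2 5 and 3 of 15. The small loci had 2 and 0 of 2 (Il6), 2 and 0 of 6 (Saa3), 1 and 0 of 3 (Cxcl5) and 1 and 1 of 4 (Cxcl12). Over all regions open in all libraries the shares were 24% and 27.3%. One of the largest differences lay at Ccl2, -16000 bp, where brown ranked at 43.8 and 69.4 and beige at 33.6 and 9.58. Ranked by -log10 q the excess was smaller, with 18 regions above and 14 below. Over all regions that ranking put brown above beige at 18.4% and below at 32.8%.

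**Figure D4:**
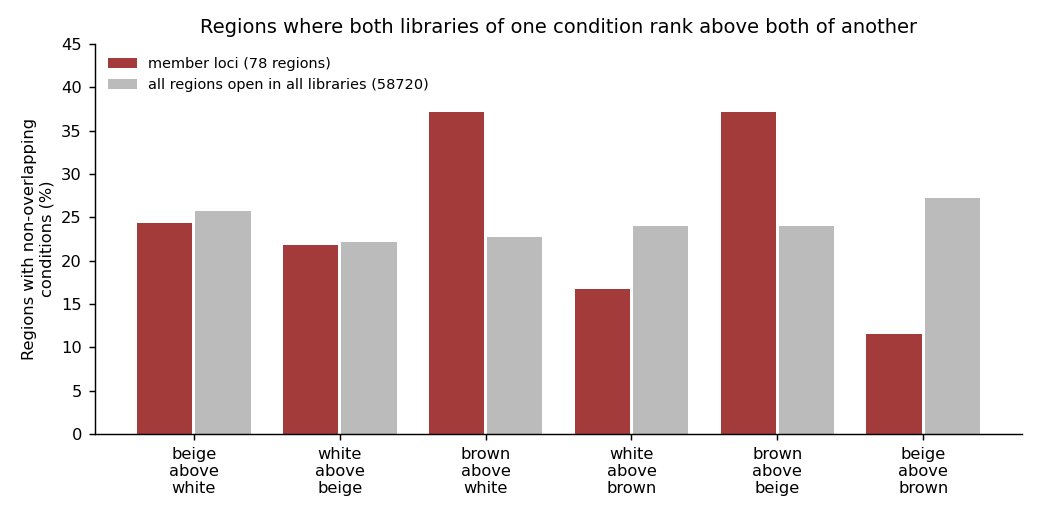
Share of regions open in all libraries (vertical axis, %) at which both libraries of one condition rank above both of another, for the 78 regions at the member loci and for all 58720. The bars for brown above white and brown above beige are 37.2% at the member loci, and those for beige above brown and white above brown are 11.5% and 16.7%.

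High ranks were scarce in these loci. A percentile of 90 or more in every library was reached by 3 of the 78 regions, against 8.69% of all regions open in all libraries. They were the promoters of Il6, Mthfd2l and Saal1, so Il6 was the one member among them.

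A match to the NF-kB consensus within 100 bp of the strongest summit was found in 10 of the 189 regions, or 5.29% with an exact 95% interval of 2.57% to 9.51%, against 2.76% of all regions. Among the 78 open in all libraries it was found in 7, or 8.97% (3.68% to 17.6%), against 3.18%. The intervals are exact Clopper-Pearson intervals that cover counting error only. Apart from the promoter of Cxcl1 and its region at -15017 bp, these were at Lcn2 (-153 bp, its promoter, and +24766 bp, that of Ciz1), Nfkb1 (+590 bp), Nfkbia (+49321, +45758 and -2630 bp) and Saa3 (+38248 and -32918 bp). The matches before Il6 and Nfkbia lay within their peaks but beyond 100 bp from the strongest summit. Of the other motifs, C/EBP was found in 18.0% of the regions (12.6% of all), AP-1 in 24.9% (21.2%), ETS in 15.3% (12.3%) and STAT in 5.82% (6.33%). The glucocorticoid response element and PPAR DR1 were found in 0 of 189, which allows a share of up to 1.93%, against 0.621% and 0.0560% of all regions.

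The other 61 genes listed for the pathway divided by role. All 11 kinases and adaptors, such as Chuk, Ikbkb and Ikbkg of the IkB kinase, had a promoter peak in all 6 libraries, as did all 6 feedback genes and 7 of 8 NF-kB subunits and inhibitors, the exception being Bcl3, which had none in white 1. Of the receptors 9 of 11 did, and Ccr2 and Cxcr2, the receptors of the chemokines Ccl2 and Cxcl1, had no promoter peak in any library. Of 18 other cytokines and chemokines only 6 had a peak in all libraries and 8 had none, among them Il1a, Il1b and Ccl5. Tnf had a peak in white 2 only, and of the acute-phase and adhesion genes 4 of 7 were open throughout, with none at Saa1 and Saa2. In total 43 of the 61 were open in all libraries, beside 62% of all protein-coding genes, and 0 were open in one condition and closed in another, beside 1.87% of all genes. Both totals are near the shares over all genes.

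**Figure D5:**
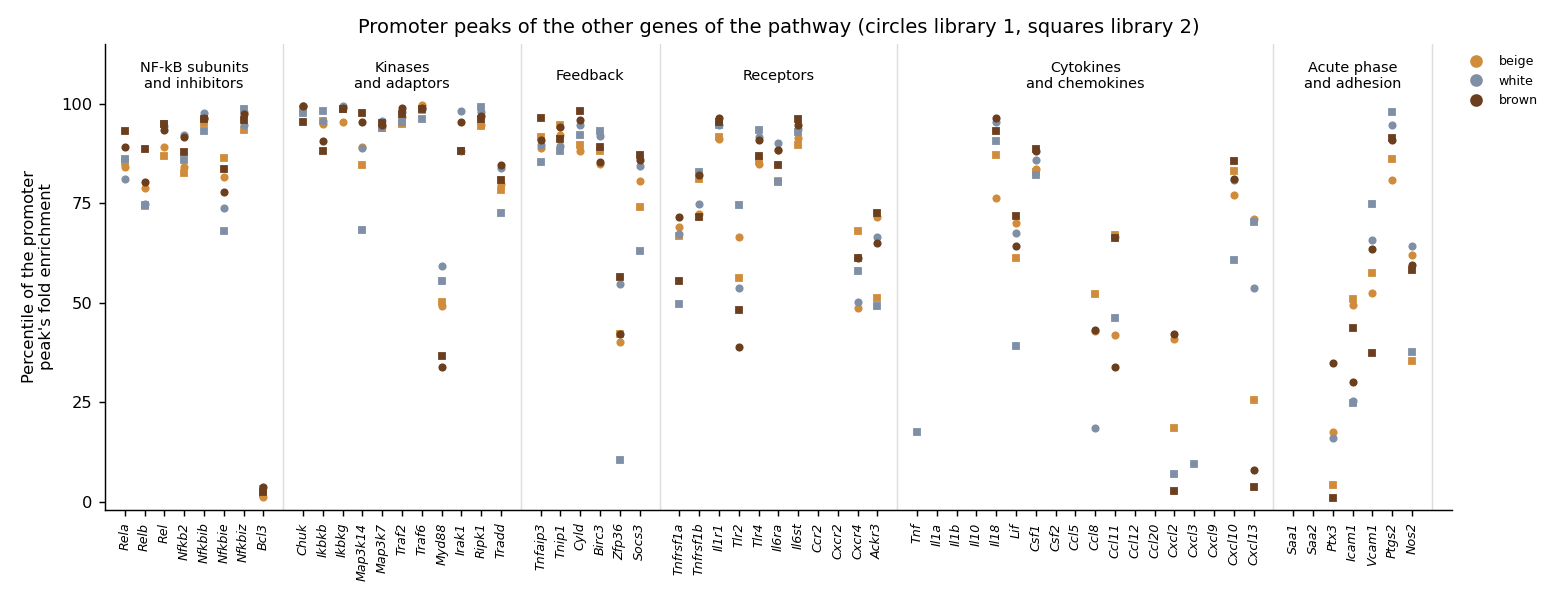
Percentile of the promoter peak (vertical axis) in each library for the 61 other genes of the pathway (horizontal axis), grouped by role, with circles for library 1 and squares for library 2. Kinases and adaptors lie high apart from Myd88, and genes with no point, mostly cytokines and chemokines, had no promoter peak.

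Macrophages, endothelial cells and progenitors could also carry these genes in an unsorted culture. Of 10 macrophage markers, 2 or 3 had a promoter peak in each library. Adgre1 and Cd68 had one in every library. Cd14 had one in both beige libraries (75.4 and 77.6), white 2 (82.5) and brown 2 (73.6), and Lyz2 in brown 1 (29.6). The other 6, among them Ptprc, Csf1r, Itgam and Spi1, had none in any. Of the adipocyte markers 9 or 10 of 10 had one, as did 8 or 9 progenitor and 6 or 7 endothelial markers. The markers with a difference were the endothelial gene Eng, with low peaks in brown alone (6.18 and 4.29), and the progenitor gene Thy1, with peaks in beige (33.3 and 40.3) and brown 1 (7.29) and none in white. The part of these cells in the ranks above was not tested.

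The genes whose promoter percentile was most like that of a member, by the mean absolute difference over the 6 libraries, were compared over 13586 other genes. Il6 was closest to Btf3 (0.955 points) and Srsf7 (0.997), Cxcl1 to E130308A19Rik (0.912) and to Cd44, the hyaluronan receptor (1.43), and Nfkbia to Gga1 (0.825) and Impdh1 (1.10). Cxcl12 was closest to Cpeb2 (1.29) and Maf (2.17). The others had no neighbour so near. They were Ccl7 with Mov10 (3.24) and the desaturase gene Scd1 (3.59), Ccl2 with Tnks1bp1 (3.85) and Crip2 (3.94), Nfkb1 with Npr3 (3.07) and Slc10a4 (3.30), Lcn2 with Zfp512b (4.16) and Ripk3 (4.55), and Cxcl5 with Mmp25 (5.61) and Kcnf1 (5.74).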

How the data were processed

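Deposited ATAC-seq peaks of 6 libraries were analysed. The authors trimmed reads with Trimmomatic, aligned them to mm10 with BWA and called peaks with MACS2 in each library, without pooling, at a q value under 0.05. Each deposited line gives a summit, its fold enrichment as a ratio to that library's local background, and its -log10 q. Lines with the same interval were reduced to the summit of highest -log10 q.

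Percentiles are average ranks of the fold within a list. Peaks were joined across libraries by an overlap of 1 bp. Start sites came from GENCODE's basic protein-coding transcripts. Motifs were searched on both strands within 100 bp of the strongest summit. Genes were named by rule: the 10 members, listed genes and regions open in one condition and closed in another, and the 2 genes of most similar promoter rank for each member. Other regions and listed genes were chosen after their values were seen. The members and lists were chosen with earlier results of these data known.

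Python 3.11.15 was used with numpy 2.4.6, pandas 2.3.3, scipy 1.17.1 and matplotlib 3.10.9, and the code was tested on simulated lists.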

Additional observations from a re-analysis of the deposited data

How the results depend on the processing

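The lists hold no reads, and the study reports depth for the beige and white libraries only. Depth was not set against any value. No paired analysis was possible because no label ties a library of one condition to one of another. No comparison was fitted by a model. The number of members with a promoter peak in all libraries stayed at 9 without any one library. It fell to 7 with promoters of 250 bp, where Cxcl5 and Nfkb1 lacked a peak in some libraries. The cause of the shifts below was not tested.

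Among the 9 promoters, beige above white rose from 1 to 3 at a q value under 0.00001, to 2 with every summit counted and to 3 by the percentile of -log10 q, which also lowered white above beige to 2 and brown above beige to 1. White above brown fell to 2 with equally long lists, and beige above brown rose from 0 to 1 with promoters of 3 kb. Without one library each, these counts ran from 1 to 4 for beige above white and from 0 to 2 for beige above brown. Shares over all genes were not computed under these settings.

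Among regions open in all libraries, white above brown fell to 7 with equally long lists, and by -log10 q brown was above beige at 18 and below at 14. With 10 kb to either side there were 32 regions open in all and 5 that differed (8.06%, against 12.5% of all regions). Beige was then above white at 7 and below at 9. Brown was above white at 13 and below at 8, and above beige at 13 and below at 4. With 100 kb, 46 regions differed (15.3%, against 12.5%) and 117 were open in all. Among the 117, white was above beige at 28 and above brown at 24, and beige above brown at 17. Leaving out one library makes a lone library decide its condition. This gave 37 to 50 differing regions, or 20.9% to 27.6%, against 22.7% to 28.5% of all regions. Between 79 and 83 regions were then open in all libraries. Beige was above white at 19 to 42 of these and below at 18 to 35. Brown was above white at 29 to 46 and below at 13 to 25. It was above beige at 29 to 48 and below at 9 to 20. The shares of these orders over all regions were not computed without one library. The share with an NF-kB match was 11.6% within 250 bp of the summit, against 6.38% of all regions. The split by distance from a start site and the -log10 q background were chosen after seeing the data.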
